A study of Mus musculus with 24 samples.

Results

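The 10 genes described here act in eicosanoid and related lipid synthesis: Ptgs1, Ptgs2, Ptges, Ptgis, Alox5, Alox5ap, Alox15, Alox12, Alox12b and Aloxe3. All 10 are called enzymes below, although Alox5ap encodes a helper protein of Alox5. They were chosen by symbol from the 18368 genes of the expression table, and all 10 were present. Of these, 7 (Ptgs1 to Alox15 in that order) were grouped as inflammatory enzymes and 3 (Alox12, Alox12b and Aloxe3) as epidermal lipoxygenases. RNA was measured by sequencing in 24 libraries of full-thickness skin from 12 CD-1 mice, an outbred stock, all 7 weeks old and with hair follicles in the resting phase (telogen). Each mouse was wounded with a 2 mm punch at a single site, abdomen, back or cheek, with 4 mice per site. The mice had 1 wound at the cheek or 2 wounds at the abdomen or back. At day 3 the wound and healthy skin next to it were taken from the same animal with a 2 mm punch, and each gave 1 library, so the unwounded skin also came from wounded mice. The comparison of wounded with adjacent skin asks how these enzymes respond to injury, and the comparison of sites asks whether that response depends on the position on the body.

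Eicosanoids are short-lived lipid signals. Phospholipases release arachidonic acid from membranes, and the cyclooxygenases Ptgs1 (largely constitutive) and Ptgs2 (inducible) convert it to prostaglandin H2, from which Ptges makes prostaglandin E2 and Ptgis makes prostacyclin. Alox5, with its membrane helper protein Alox5ap, starts the leukotriene branch in myeloid cells. The mouse Alox15 enzyme oxygenates arachidonic acid in macrophages and eosinophils. Alox12b and Aloxe3 act in sequence on a linoleate-bearing ceramide in differentiating keratinocytes and are needed for the lipid barrier of the epidermis, while Alox12, known from platelets, is also made in mouse epidermis.

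Values are FPKM (mapped fragments corrected for transcript length and for library size), so levels can be set against each other between genes. The FPKM of a library summed to between 490830 and 608888, and 15781 to 16577 genes were above 0. FPKM values hold no fragment counts, so the counting error of a value is unknown. Differentiated epidermis genes were present in every library, with a summed level of 4148 to 9222 FPKM. Wound effects below are differences of log2(FPKM + 0.5) from a single limma model of the 24 libraries in which every mouse has its own baseline, and they understate the change of a gene near 0.5 FPKM. A wound effect was called at a Benjamini-Hochberg adjusted p under 0.001, the threshold of the study, and a second threshold of 0.05 is named where it is used.

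The 10 genes lie at separate places except on chromosome 11, where 4 of them sit (GRCm38). Aloxe3 (chr11:69125417-69149115) and Alox12b (chr11:69157072-69169791) are neighbours 7956 bases apart with 0 protein-coding genes between them. Alox12 (chr11:70241457-70255380) and Alox15 (chr11:70344147-70390538) lie further along, beyond 64 protein-coding genes that separate Alox12 from Alox8, with Alox12e between them. Ptgs1 (chr2:36216742-36258593), Ptges (chr2:30889471-30931020) and Ptgis (chr2:167203194-167252150) are on chromosome 2. Ptgs2 is at chr1:150100031-150108234, Alox5 at chr6:116410071-116461178 and Alox5ap at chr5:149265004-149288153.

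The RefSeq promoter table (GRCm38.p6) held 6 of the 10 genes. The 250 bases before the transcript start are shown for the pair of cyclooxygenases, of which Ptgs2 rose in wounds and Ptgs1 was not called, for Ptges, which rose, and for Alox12b of the epidermal group. They read 5′ to 3′ on the strand of the gene. They are Ptgs1 chr2:36230176-36230425 (plus strand), Ptgs2 chr1:150099781-150100030 (plus strand), Ptges chr2:30903298-30903547 (minus strand) and Alox12b chr11:69156822-69157071 (plus strand). The Ptgs1 and Ptges stretches lie inside the annotated gene, before the start of the RefSeq transcript in the table. Capitals mark a GC box.
Ptgs1: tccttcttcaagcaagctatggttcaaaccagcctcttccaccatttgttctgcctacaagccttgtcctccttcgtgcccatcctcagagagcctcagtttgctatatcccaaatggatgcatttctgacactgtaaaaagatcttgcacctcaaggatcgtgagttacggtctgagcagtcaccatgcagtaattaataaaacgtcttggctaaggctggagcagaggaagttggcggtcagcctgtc
Ptgs2: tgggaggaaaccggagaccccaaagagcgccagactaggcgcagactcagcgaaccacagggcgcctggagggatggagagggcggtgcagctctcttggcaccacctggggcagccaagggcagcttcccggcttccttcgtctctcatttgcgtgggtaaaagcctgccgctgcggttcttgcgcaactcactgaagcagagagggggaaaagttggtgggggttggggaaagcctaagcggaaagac
Ptges: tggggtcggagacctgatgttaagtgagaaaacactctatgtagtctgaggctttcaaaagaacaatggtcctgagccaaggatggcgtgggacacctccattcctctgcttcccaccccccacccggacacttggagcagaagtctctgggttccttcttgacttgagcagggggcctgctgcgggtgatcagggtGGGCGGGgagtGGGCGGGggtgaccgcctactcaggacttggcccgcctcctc
Alox12b: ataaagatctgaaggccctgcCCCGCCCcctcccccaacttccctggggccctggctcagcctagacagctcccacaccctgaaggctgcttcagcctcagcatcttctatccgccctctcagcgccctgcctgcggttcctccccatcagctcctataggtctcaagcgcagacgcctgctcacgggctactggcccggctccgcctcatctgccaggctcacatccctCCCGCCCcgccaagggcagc

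Each of these windows was searched on both strands for 6 motifs: the TATA box (TATAAA), the cyclic AMP response element (TGACGTCA), AP-1 (TGANTCA), kappaB (GGGANTTTC), C/EBP (TTNNGNAAT) and the GC box (CCCGCCC). Over all 32851 promoters of the table, the shares with a match were 12.4% for the TATA box, 1.55% for the cyclic AMP element, 6.75% for AP-1, 0.941% for kappaB, 10.2% for C/EBP and 23.4% for the GC box. The GC box occurred 2 times each in the Ptges, Alox12 and Alox12b windows, without overlap with another motif. In the Ptgs1, Ptgs2 and Alox5 windows 0 of the 6 motifs were found, which says only that these letters are not in these 250 bases.

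In unwounded skin the transcripts ranked from Alox5ap (46.7 ± 9.96 FPKM, SD, n = 12) and Ptgs1 (45.4 ± 7.15) through Alox12b (34.0 ± 7.83), Aloxe3 (15.6 ± 2.79), Ptges (14.1 ± 2.25), Alox5 (7.37 ± 1.56), Alox12 (5.65 ± 0.852), Ptgis (2.71 ± 0.994) and Alox15 (1.61 ± 1.14) to Ptgs2 (0.602 ± 0.289). Only Alox12b and Aloxe3 were neighbours in this order whose 12 libraries did not overlap. In wounds Alox5ap stood at 102 ± 19.1 FPKM, above Ptgs1 (42.1 ± 3.96) with no overlap. Ptges (33.1 ± 8.05) now preceded Alox12b (29.3 ± 5.36), and Ptgs2 (10.98 ± 6.20) preceded Ptgis (8.74 ± 5.06), Alox5 (6.06 ± 1.29), Alox12 (4.51 ± 0.558) and Alox15 (2.08 ± 1.13), next after Aloxe3 (11.9 ± 2.96). Alox12b and Aloxe3 were again apart, and the other neighbours below Ptgs1 overlapped.

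**Figure D1:**
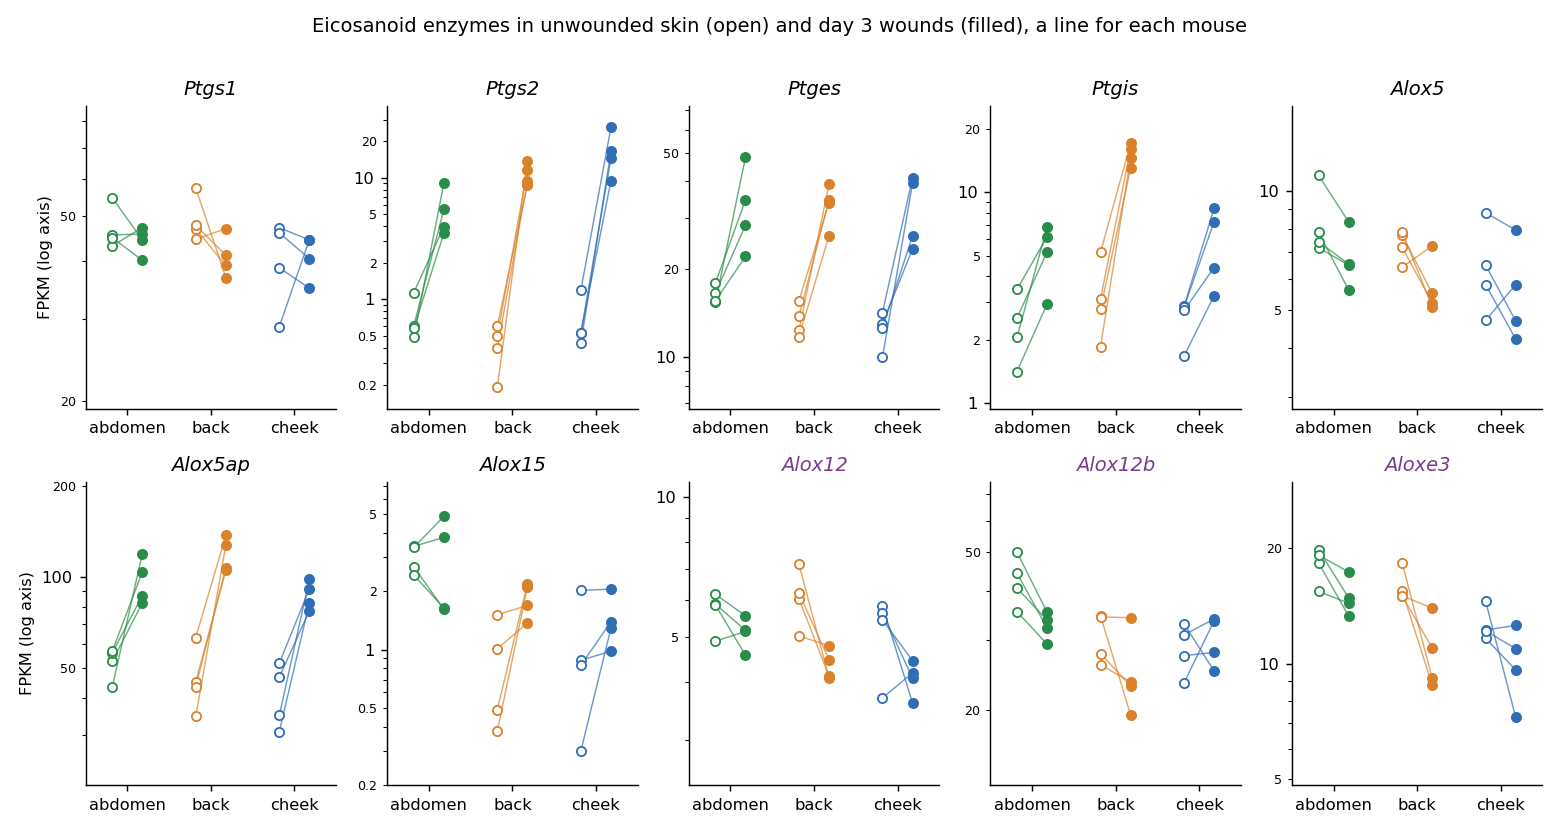
FPKM (log axis, a scale for each gene) of the 10 enzymes by site, with open points for unwounded skin, filled points for wounds and a line joining both libraries of a mouse. Ptgs2, Ptges, Ptgis and Alox5ap rise in all 12 mice, whereas Aloxe3 (one of the purple titles, which mark epidermal lipoxygenases) is lower in the wound in 11.

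Averaged over the 3 sites, 4 of the 10 enzymes rose in wounds (Ptgs2, Ptgis, Ptges and Alox5ap, adjusted p under 0.001), and 0 fell. Over all 14423 genes tested, 19.1% were called higher and 14.4% lower at this threshold. At an adjusted p under 0.05, Alox15 was also higher, and Alox5, Alox12, Alox12b and Aloxe3 were lower, so that 5 enzymes were higher (33.3% of all genes) and 4 lower (29.4% of all genes). Ptgs1 was called at neither threshold. The median wound effect was 1.12 for the inflammatory enzymes and -0.29 for the epidermal lipoxygenases, beside 0.02 for all genes. By limma at an unadjusted p under 0.05, the same 5 enzymes were higher and the same 4 lower. The share of all genes at that unadjusted level was not counted. It is at least the 33.3% and 29.4% found at the adjusted level of 0.05.

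At the single sites, Ptgs2, Ptges, Ptgis and Alox5ap were higher and Alox5, Alox12 and Aloxe3 lower in the wound at all 3, whereas the sign differed between sites for Ptgs1, Alox15 and Alox12b. How many of all genes kept the same sign at all 3 sites was not counted. In the abdomen only Ptgs2 was called higher, against 3.92% of all genes, and 0 enzymes were lower (1.04% of all genes). Ptges, Ptgis and Alox5ap joined it at 0.05, which gave 4 higher (16.9% of all genes) and 0 lower (16.0%). In the back and in the cheek, Ptgs2, Ptges, Ptgis and Alox5ap were called higher, 4 of 10 at each, against 10% of all genes in the back and 6.50% in the cheek. None was called lower at either site, where 4.37% and 2.19% of all genes were. At 0.05 the back had 5 higher, with Alox15 added (28% of all genes), and 2 lower, Alox12 and Aloxe3 (17.9%), and the cheek had the same 4 higher (19.7%) and 0 lower (16.9%). At an unadjusted p under 0.05, limma gave 1 lower enzyme in the abdomen (Alox12b), 4 in the back and 1 in the cheek (Alox12). The share of all genes lower at that unadjusted level was not counted. It is at least the 16.0% (abdomen), 17.9% (back) and 16.9% (cheek) found at the adjusted level of 0.05.

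**Figure D2:**
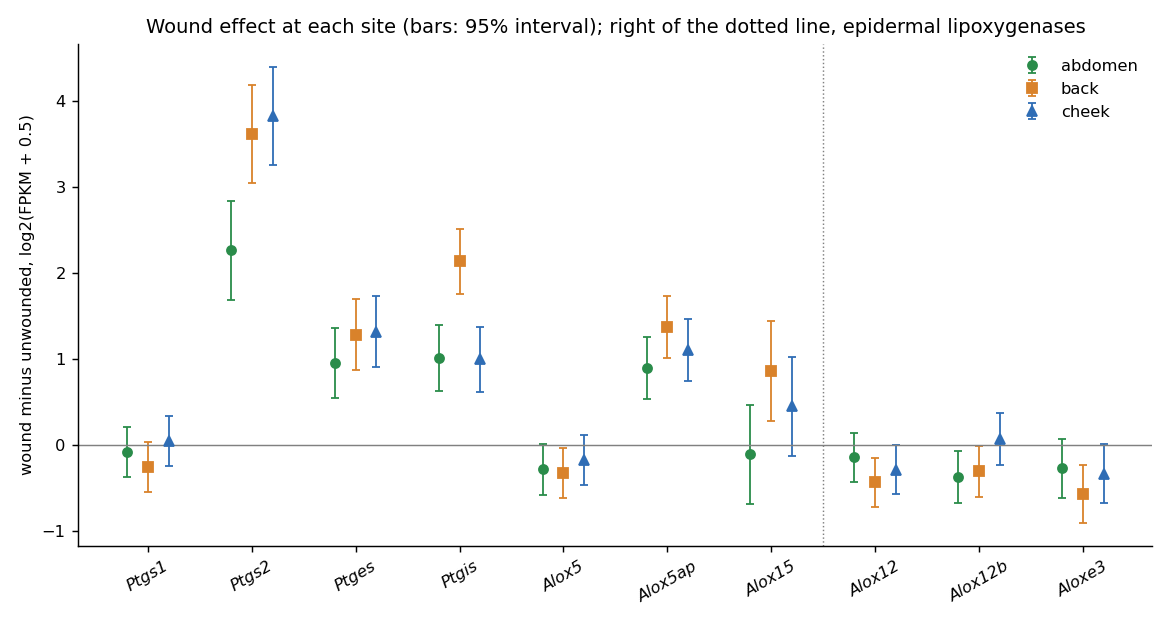
Wound effect of each enzyme, as the difference of log2(FPKM + 0.5) between wound and unwounded libraries, by site, with 95% intervals from limma. Ptgs2 reaches 2.26 in the abdomen, 3.61 in the back and 3.82 in the cheek, Ptgis stands at 2.13 in the back, and the epidermal lipoxygenases to the right of the dotted line lie between -0.57 and 0.07.

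Ptgs2, the inducible cyclooxygenase, changed most of the 10. In unwounded skin of mice 1 to 4 it measured 0.49, 1.14, 0.61 and 0.58 FPKM in the abdomen, 0.19, 0.4, 0.5 and 0.61 in the back, and 0.53, 0.53, 1.2 and 0.44 in the cheek. In the wounds of the same mice it measured 9.05, 3.97, 5.5 and 3.51 in the abdomen, 13.65, 9.33, 11.64 and 8.68 in the back, and 9.49, 14.54, 25.94 and 16.49 in the cheek. All wound libraries lay above all unwounded libraries, and the cheek wounds did not overlap with the abdomen wounds. The wound effect was 2.26 ± 0.26 (SE) in the abdomen (adjusted p = 9.2e-05, limma), 3.61 ± 0.26 in the back (adjusted p = 1.19e-06) and 3.82 ± 0.26 in the cheek (adjusted p = 9.41e-07). Averaged over sites it was 3.23 ± 0.15 (adjusted p = 6.2e-09), and an exact sign-change test over the 12 mice gave its smallest possible two-sided p, 0.000488, with a rise in 12 of 12 mice. Without abdomen mouse 3 the call in the abdomen was lost, with an adjusted p of 0.00101.

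Ptgs1, the constitutive cyclooxygenase, lay between 28.9 and 57.4 FPKM in unwounded skin and between 35.0 and 47.2 FPKM in wounds. Its wound effect was -0.08 in the abdomen, -0.26 in the back and 0.05 in the cheek (SE 0.13 each), and the averaged effect of -0.10 had a 95% interval from -0.26 to 0.07 (adjusted p = 0.30, limma). It was lower in 8 mice and higher in 4. Within a library, Ptgs1 exceeded Ptgs2 by 38.3 to 302 times in unwounded skin, and by 1.56 to 11.4 times in wounds. The FPKM of Ptgs2 thus stayed under that of Ptgs1 in every library, also in the cheek wound of mouse 3, where the ratio of Ptgs2 to Ptgs1 was highest at 0.641.

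Ptges, which makes prostaglandin E2, rose about 2-fold on the averaged scale. Its unwounded levels were 15.4, 17.95, 16.57 and 15.6 FPKM in the abdomen, 15.63, 13.8, 12.35 and 11.76 in the back, and 13.03, 12.64, 14.22 and 10 in the cheek. The wounds of these mice measured 48.33, 34.52, 28.3 and 22.14 in the abdomen, 33.84, 34.65, 39.15 and 26.07 in the back, and 23.49, 26.03, 41.09 and 39.46 in the cheek. The lowest wound library was above the highest unwounded one, and the wound means of the 3 sites were near each other (33.3 ± 11.2, 33.4 ± 5.43 and 32.5 ± 9.04 FPKM, SD, n = 4). The averaged effect was 1.18 ± 0.11 (fold 2.27, adjusted p = 1.79e-06, limma), with a rise in 12 of 12 mice (exact sign-change test, p = 0.000488). In the abdomen it was 0.95 (adjusted p = 0.00291), in the back 1.28 (adjusted p = 0.0002) and in the cheek 1.32 (adjusted p = 0.000245), with SE 0.19. The calls at 0.001 were lost without back mouse 2, 3 or 4 in the back (adjusted p 0.0012 to 0.0019) and without cheek mouse 3 or 4 in the cheek (0.0011 to 0.0022).

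Ptgis, the prostacyclin synthase, rose at each site and reached its highest levels in the back. Unwounded values were 2.53, 1.41, 3.46 and 2.05 FPKM in the abdomen, 1.85, 3.12, 5.18 and 2.8 in the back, and 2.87, 2.85, 2.75 and 1.67 in the cheek. In wounds they were 5.2, 2.95, 6.13 and 6.82 in the abdomen, 14.49, 16.0, 17.07 and 13.01 in the back, and 8.39, 7.25, 4.39 and 3.23 in the cheek. Every back wound was above every abdomen and cheek wound, while unwounded skin of the 3 sites overlapped. The wound effect was 1.01 in the abdomen (adjusted p = 0.00129, called only at 0.05), 2.13 in the back (adjusted p = 2.17e-06) and 1.00 in the cheek (adjusted p = 0.00096), with SE 0.18 from limma. All 12 mice showed the rise (exact sign-change test, p = 0.000488). The cheek call sat at its threshold: it was lost without abdomen mouse 1, 2 or 3, back mouse 2 or 4, or any single cheek mouse, with adjusted p between 0.0012 and 0.0076.

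Alox5ap and Alox5, which act together, parted in the wounds. Alox5ap measured 52.73, 56.29, 56.98 and 43.35 FPKM in unwounded abdomen, 45.22, 43.49, 63.25 and 34.72 in back and 52.02, 34.93, 46.75 and 30.88 in cheek. In wounds it measured 82.22, 86.96, 104.19 and 119.56 in the abdomen, 105.38, 107.52, 137.56 and 127.76 in the back and 91.48, 98.53, 77.55 and 82.26 in the cheek. The wound libraries lay wholly above the unwounded ones, and each back wound lay above each cheek wound. The effects were 0.89, 1.37 and 1.10 in abdomen, back and cheek (SE 0.17, adjusted p = 0.00192, 4.64e-05 and 0.000333, limma), and 1.12 ± 0.10 averaged (adjusted p = 8.1e-07). The cheek call was lost without cheek mouse 2 (adjusted p = 0.0032) or cheek mouse 4 (adjusted p = 0.0021).

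Alox5 ranged from 4.70 to 10.95 FPKM in unwounded skin and from 4.21 to 8.35 FPKM in wounds, with overlapping groups. It was lower in the wound of 10 of 12 mice (exact sign-change test, p = 0.00977), and the averaged effect was -0.26 ± 0.08 (adjusted p = 0.0104, limma), past 0.05 but not past 0.001. The ratio of Alox5ap to Alox5 within a library was 5.14 to 8.04 in unwounded skin and 10.4 to 27.0 in wounds. It was higher in the wound in all 12 mice, with a median of 17.1 in wounds beside 6.04 in unwounded skin.

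**Figure D3:**
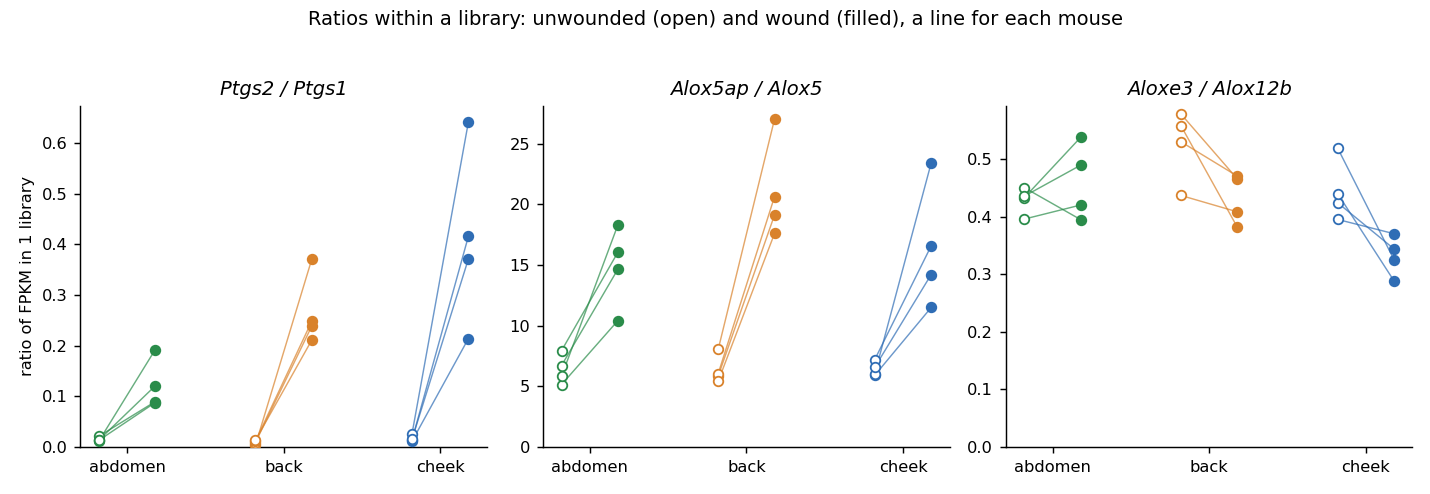
Ratio of the FPKM values of a pair of enzymes in the same library, by site, with open points for unwounded skin, filled points for wounds and a line for each mouse. Ptgs2 to Ptgs1 and Alox5ap to Alox5 are higher in the wound in all 12 mice, whereas Aloxe3 to Alox12b is higher in the wound in 3, all from the abdomen.

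Alox15 was low throughout, and in unwounded skin its level was lower in back and cheek than in abdomen. Only the back difference was called (adjusted p under 0.05, limma), and that call was lost in 9 of 12 fits with a mouse left out. In unwounded skin Alox15 measured 2.68, 2.42, 3.41 and 3.37 FPKM in the abdomen, 0.38, 1.01, 1.51 and 0.49 in the back and 2.02, 0.88, 0.83 and 0.3 in the cheek. Wounds held 1.61, 1.64, 3.79 and 4.87 in the abdomen, 2.1, 1.37, 1.69 and 2.18 in the back and 2.05, 0.98, 1.39 and 1.29 in the cheek. The unwounded abdomen was above both other sites without overlap, whereas the wounds of the sites overlapped. The wound effect was -0.11 in the abdomen (adjusted p = 0.783), 0.86 in the back (adjusted p = 0.0195) and 0.45 in the cheek (adjusted p = 0.208), with SE 0.27 from limma. Averaged over sites it was 0.40 ± 0.15 (adjusted p = 0.038), called at 0.05 only, and it was higher in 10 of 12 mice (exact sign-change test, p = 0.0718).

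The 3 epidermal lipoxygenases were lower in wounds by smaller amounts, none past 0.001. Aloxe3, the second enzyme of the barrier pair, measured 18.29, 19.79, 19.17 and 15.42 FPKM in unwounded abdomen, 18.33, 15.03, 15.49 and 15.0 in back, and 12.23, 11.64, 14.52 and 12.17 in cheek. Its wounds measured 13.3, 14.83, 17.32 and 14.36 in the abdomen, 9.15, 10.97, 8.79 and 13.96 in the back, and 12.57, 9.62, 7.24 and 10.93 in the cheek. Back wounds and unwounded back skin did not overlap, and the other sites did. The effect was -0.27 in the abdomen, -0.57 in the back (adjusted p = 0.0101, limma) and -0.33 in the cheek, with SE 0.16, and -0.39 ± 0.09 averaged (adjusted p = 0.00215). Aloxe3 was lower in 11 of 12 mice (exact sign-change test, p = 0.000977).

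Alox12b, the first enzyme of the pair, ranged from 23.4 to 50.0 FPKM in unwounded skin and from 19.4 to 35.3 FPKM in wounds. Its effect was -0.37 in the abdomen (adjusted p = 0.055), -0.31 in the back (adjusted p = 0.086) and 0.07 in the cheek (adjusted p = 0.721), with SE 0.14, and the averaged effect of -0.20 ± 0.08 passed 0.05 only (adjusted p = 0.0406, limma). All abdomen and back mice were lower in the wound, whereas 3 of 4 cheek mice were higher, so that 9 of 12 mice were lower (exact sign-change test, p = 0.0645). The difference in this effect between sites was not called (F test, adjusted p = 0.429). The sign in the cheek rested on mouse 4 (23.42 FPKM unwounded, 33.57 in the wound), without which the cheek effect was -0.077. The ratio of Aloxe3 to Alox12b was 0.395 to 0.579 in unwounded skin and 0.289 to 0.538 in wounds.

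Alox12 ranged from 3.69 to 7.16 FPKM in unwounded skin and from 3.6 to 5.54 FPKM in wounds. Its effect was -0.14, -0.44 and -0.29 in abdomen, back and cheek (SE 0.13), of which the back passed 0.05 (adjusted p = 0.016, limma), with no overlap between back wounds and unwounded back skin. Averaged over sites it was -0.29 ± 0.08 (adjusted p = 0.00471), and 10 of 12 mice were lower (exact sign-change test, p = 0.00488).

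Set side by side within each mouse, the median change of the 7 inflammatory enzymes was between 0.49 and 1.44 on the log2 scale and that of the 3 epidermal lipoxygenases between -0.81 and 0.04. The inflammatory median exceeded the epidermal one in 12 of 12 mice, by 0.59 to 2.03 with a median of 1.02. The 4 back mice had the largest differences of all mice (1.43 to 2.03). These are descriptions of the chosen groups, and no test was run on them. The inflammatory group itself was mixed, since Ptgs1 and Alox5 did not rise.

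**Figure D4:**
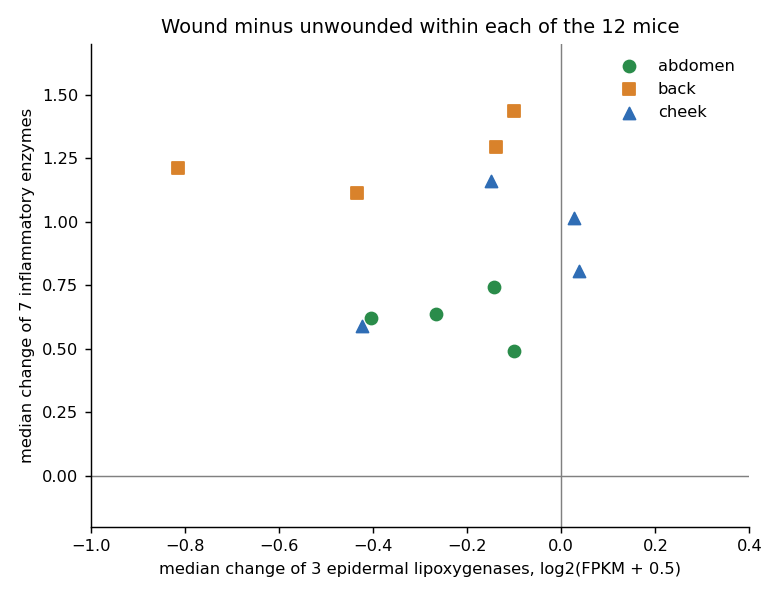
Median wound minus unwounded change, log2(FPKM + 0.5), of the 7 inflammatory enzymes (vertical) against that of the 3 epidermal lipoxygenases (horizontal), with a point for each of the 12 mice, marked by site. All points lie above 0 on the vertical axis, and 10 lie left of 0 on the horizontal axis.

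Markers of other cells moved with these enzymes in the same libraries. In bulk skin, fewer cells of a type and less RNA per cell cannot be told apart. All 8 neutrophil markers rose (averaged effect, adjusted p under 0.001), and their summed level went from 8.75 to 38.0 FPKM in unwounded skin to between 372 and 2461 FPKM in wounds. Of the 8 macrophage markers 7 rose, with sums of 387 to 789 FPKM in unwounded skin and 865 to 1447 FPKM in wounds. All 4 wound-edge keratinocyte markers rose (387 to 1285 against 2107 to 14682 FPKM). Of the 6 platelet markers, 4 were tested and 2 rose (52.4 to 111 against 117 to 277 FPKM). Pf4 made up most of this sum, with means of 78.1 FPKM in unwounded skin and 168 FPKM in wounds. Ppbp also rose, and Gp1bb was higher at 0.05 only (adjusted p = 0.00289, limma). Itga2b was called at neither threshold (effect -0.11, adjusted p = 0.147). Of the 6 endothelial markers, of a cell type known to make prostacyclin, 4 rose (65.5 to 102 against 93.8 to 124 FPKM). Of the 7 mast cell markers 0 were called (limma), with 123 to 303 FPKM in unwounded skin and 135 to 315 FPKM in wounds. Of 4 eosinophil markers 2 were tested and 0 called at 0.001, with sums of at most 2.65 FPKM. At 0.05 the tested Ccr3 and Siglecf were higher (adjusted p = 0.00165 and 0.0236, limma), as they were in the back. Their means were 0.243 and 0.253 FPKM in unwounded skin and 0.55 and 0.491 FPKM in wounds. Of the 8 differentiated epidermis markers, 2 rose and 3 fell, and their sum was 4148 to 8463 FPKM in unwounded skin and 6315 to 9222 FPKM in wounds. All 5 basal epidermis markers were called, 3 higher and 2 lower (3624 to 5869 against 5278 to 10878 FPKM). All 4 adipocyte markers fell, as did 2 of the 6 fibroblast markers and 1 of the 4 sebaceous gland markers, and of the 6 smooth muscle markers 2 rose and 2 fell. Of the 4 skeletal muscle markers 0 passed 0.001 and 4 were lower at 0.05. Unwounded abdomen of mice 2 and 3 stood apart in muscle, with sums of 347 and 1843 FPKM beside 7687 to 15305 FPKM in the other unwounded libraries. No listed marker was at 0 in every library. The part of these shifts in the enzyme changes was not tested.

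Next, the sites were compared directly, first among the 12 unwounded libraries and then among the 12 wounds, at an adjusted p under 0.05. The median difference of all genes was -0.12 for unwounded back against abdomen and 0.14 for unwounded cheek against back on the log2 scale, so that small differences there are read against these shifts. In unwounded skin, Alox15 was lower in the back than in the abdomen (-1.43 ± 0.33, adjusted p = 0.0382, limma), the 1 enzyme of 10 called there, against 2.67% of all genes. The difference of cheek from abdomen was -1.31 (adjusted p = 0.0537). The back call did not hold without any 1 of the abdomen mice, back mouse 1, 2 or 4, or cheek mouse 2 or 3, with adjusted p between 0.0514 and 0.105, and it was also lost with a pseudocount of 0.1, without the filter and under median-ratio or quantile scaling (0.0538 to 0.0731). The eosinophil marker sum was 0.49 to 1.24 FPKM in unwounded abdomen, 0.11 to 0.63 in back and 0.33 to 0.68 in cheek, and the macrophage sums overlapped, with 0 markers of either list called between back and abdomen. Of the 4 sebaceous gland markers 2 were lower in the unwounded back than in the abdomen, with sums of 447 to 524 FPKM in the back and 599 to 1053 FPKM in the abdomen, which did not overlap. Of the 6 smooth muscle and pericyte markers 1 was lower. The part of these shifts in the Alox15 difference was not tested.

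In the unwounded cheek, Aloxe3 was lower than in the abdomen (-0.51 ± 0.11, adjusted p = 0.0325, limma), the 1 enzyme called against 2.57% of all genes. The 4 cheek libraries lay below the 4 abdomen libraries without overlap (exact permutation test, p = 0.0286, the smallest that 4 against 4 allow). Its neighbour Alox12b also showed no overlap, at 28.7 ± 4.19 FPKM in the cheek and 42.5 ± 6.14 in the abdomen (SD, n = 4), but its difference of -0.56 had an adjusted p of 0.0541. The differentiated epidermis markers summed to 4148 to 5349 FPKM in unwounded cheek and 5984 to 7475 in unwounded abdomen, also without overlap. Of these 8 markers 1 was called lower in the cheek, as was 1 each of the basal epidermis, smooth muscle and sebaceous gland lists, and their part was not tested. The Aloxe3 call was lost without abdomen mouse 1, 2 or 3 or cheek mouse 1, 2 or 4, with adjusted p between 0.0504 and 0.111. Between unwounded cheek and back 0 enzymes were called (limma, 1 at an unadjusted p under 0.05), where 1.05% of all genes were. The share of all genes at the unadjusted level was not counted.

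In wounds, Ptgs2 was higher in the cheek than in the abdomen (1.51 ± 0.31, fold 2.85, adjusted p = 0.0185, limma), the 1 enzyme of 10 called against 10.8% of all genes. This difference stayed past 0.05 with each mouse left out in turn (adjusted p 0.00923 to 0.0487). The back wounds lay between, 0.98 above the abdomen (adjusted p = 0.147) and 0.53 below the cheek (adjusted p = 0.308). Aloxe3 and Alox12 were lower in cheek than in abdomen wounds without overlap (-0.56 and -0.29). Their adjusted p of 0.0525 and 0.0564 (limma) did not pass 0.05. Neutrophil marker sums overlapped, at 372 to 2461 FPKM in abdomen wounds, 1115 to 1633 in back wounds and 625 to 1515 in cheek wounds. S100a8 and S100a9 made up most of these sums (means over all wounds 422 and 648 FPKM). Both had their lowest site mean in cheek wounds. Mean levels rose from abdomen over back to cheek wounds for Csf3r (12.0, 18.4, 25.4 FPKM), Clec4d (36.7, 61.9, 70.6) and Mmp8 (1.71, 4.09, 4.37). Cxcr2 (10.2, 13.9, 15.4) and Trem1 (10.2, 11.6, 16.7) had the same order, which is that of Ptgs2. Retnlg was highest in back wounds (20.6). Of the 8 neutrophil markers, 2 were called higher in cheek than in abdomen wounds. Also called higher there were 2 mast cell, 2 skeletal muscle, 1 platelet, 1 fibroblast and 1 endothelial marker, and 1 platelet, 1 smooth muscle and 1 sebaceous gland marker were called lower. The part of these shifts in the Ptgs2 difference was not tested.

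Ptgis was higher in back wounds than in abdomen wounds (1.49 ± 0.28, fold 2.80, adjusted p = 0.0363, limma) and lower in cheek wounds than in back wounds (-1.39 ± 0.28, adjusted p = 0.0367). It was the 1 enzyme called in each, against 1.27% and 2.5% of all genes. Cheek and abdomen wounds differed by 0.10, with a 95% interval from -0.52 to 0.72. The 4 back wounds did not overlap with either other site (exact permutation test, p = 0.0286). The first call was lost without abdomen mouse 2 or 3 or any back mouse (adjusted p 0.0671 to 0.106), and the second without back mouse 2, 3 or 4 or cheek mouse 2, 3 or 4 (0.0633 to 0.114). The macrophage marker sum was 1166 to 1447 FPKM in back wounds, above the 865 to 1088 of abdomen wounds, and overlapped with the 1026 to 1285 of cheek wounds. The endothelial sum was 105 to 121 in back, 93.8 to 111 in abdomen and 107 to 124 in cheek wounds. Between back and abdomen wounds, 1 neutrophil marker was called higher and 1 sebaceous gland marker lower, and between cheek and back wounds 0 listed markers were called (limma). The part of these shifts was not tested.

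**Figure D5:**
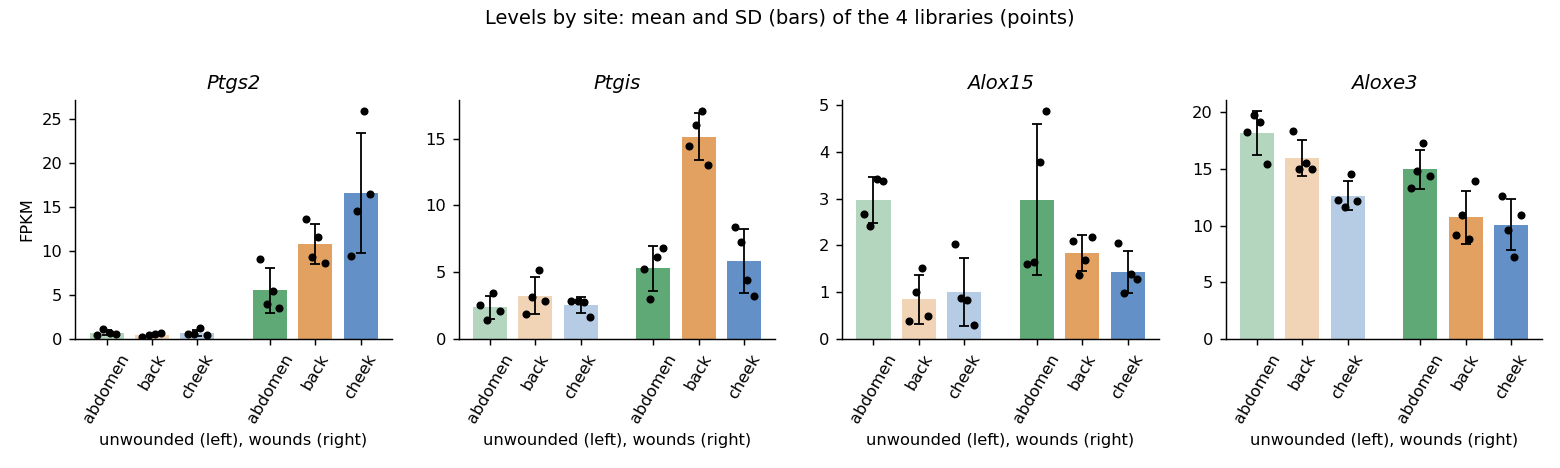
FPKM of Ptgs2, Ptgis, Alox15 and Aloxe3 by site, in unwounded skin (pale bars) and wounds (full bars), with bars for the mean, error bars for the SD and points for the 4 libraries. Ptgis stands apart in back wounds at 15.1 ± 1.77 FPKM and Alox15 in unwounded abdomen at 2.97 ± 0.497 FPKM, while Ptgs2 in wounds goes from 5.51 in abdomen to 16.6 FPKM in cheek.

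Whether the wound effect itself differed between sites was tested by a moderated F test over the 3 effects. At an adjusted p under 0.05, 0 of the 10 enzymes were called by limma (2 at an unadjusted p under 0.05, Ptgis and Ptgs2), and 0.0208% of all genes were, which is 3 of 14423. How many of all genes passed the unadjusted level was not counted. The lowest adjusted p was 0.154 for Ptgis, whose effect in the back exceeded that in the abdomen by 1.12 (95% interval 0.59 to 1.66). For Ptgs2 it was 0.228, with effects in the cheek and back above that in the abdomen by 1.56 and 1.35. Without abdomen mouse 1, which had the highest Ptgs2 of the abdomen wounds, the Ptgs2 difference was called (adjusted p = 0.0255), and the number of all genes called went from 3 to 315. Leaving out any other mouse gave 1 to 4 genes. For the remaining enzymes the adjusted p was 0.412 or more.

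Around these enzymes, 46 other genes of eicosanoid metabolism and signalling were listed, all in the table, and 42 passed the filter on low values. The 4 untested genes were Pla2g10, Ggt1, Ptgdr2 and Cysltr2. In the averaged wound effect 11 of the 42 rose and 8 fell (26.2% and 19.0%, beside 19.1% and 14.4% of all genes), with a median of 0.06 beside 0.02 over all genes. Single sites gave 1 higher and 0 lower in the abdomen, 6 and 2 in the back, and 4 and 1 in the cheek. These are 2.38% and 0% of the 42 in the abdomen (3.92% and 1.04% of all genes), 14.3% and 4.76% in the back (10% and 4.37%), and 9.52% and 2.38% in the cheek (6.50% and 2.19%). By the F test 0 of the 42 were called (limma). Apart from the 5 that rose most and the 5 that fell most, the genes named below were picked after their values were seen.

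On the input side of the pathway, 7 of 8 phospholipases A2, which release arachidonic acid, were tested. Pla2g4b rose (1.55 ± 1.65 to 3.76 ± 1.31 FPKM, SD, n = 12; effect 1.21 ± 0.18, adjusted p = 0.000116, limma), as did Pla2g4e (3.69 ± 0.955 to 9.62 ± 4.30 FPKM; effect 1.17, adjusted p = 0.000692). The highest unwounded value of Pla2g4b, 6.68 FPKM, was above its highest wound value, 5.93 FPKM. Pla2g5, a secreted phospholipase, fell from 14.7 ± 5.72 to 7.08 ± 3.71 FPKM (effect -1.07 ± 0.13, adjusted p = 1.44e-05). The widely made cytosolic enzyme Pla2g4a was at 9.83 and 9.53 FPKM (effect -0.05, adjusted p = 0.382).

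Among 7 further prostanoid synthases only the thromboxane synthase Tbxas1 was called, rising from 3.89 to 8.45 FPKM (effect 0.97, adjusted p = 7.84e-06, limma). The other prostaglandin E synthases did not follow Ptges, with an effect of -0.26 for Ptges2 (adjusted p = 0.00338) and 0.11 for Ptges3 (adjusted p = 0.229). In the leukotriene branch 4 of 5 genes were tested. Lta4h, which makes leukotriene B4, rose by a small amount (34.1 to 39.1 FPKM, effect 0.20, adjusted p = 0.000807). Dpep1, a dipeptidase that trims cysteinyl leukotrienes, fell from 57.8 ± 12.5 to 30.9 ± 8.58 FPKM (effect -0.91 ± 0.12, adjusted p = 3.87e-05), and Ltc4s, which makes leukotriene C4, was at 16.8 and 18.4 FPKM (effect -0.01, adjusted p = 0.965).

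Of the 6 genes of breakdown and transport, 2 rose and 3 fell. Cyp4f18, which inactivates leukotriene B4 in neutrophils, went from 0.69 ± 0.501 to 16.6 ± 6.83 FPKM (effect 3.84 ± 0.29, adjusted p = 1.13e-06, limma), more than any other gene of the 46. Hpgd, which inactivates prostaglandins, fell from 49.5 ± 12.5 to 26.1 ± 5.17 FPKM (effect -0.90 ± 0.10, adjusted p = 1.2e-05). Ptgr1 rose slightly (effect 0.20), while Ptgr2 (effect -0.36) and the exporter Abcc4 (effect -0.62) fell. Thus the transcripts of the prostaglandin synthesis enzymes Ptgs2 and Ptges were higher and that of Hpgd lower in the same wounds.

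Of 14 receptors 12 were tested, and 4 rose and 2 fell. Fpr2, a receptor for formylated peptides and lipoxin, went from 1.20 ± 0.618 to 12.4 ± 3.68 FPKM (effect 2.95 ± 0.15, adjusted p = 1.25e-08, limma), and the leukotriene B4 receptor Ltb4r1 from 6.65 ± 2.38 to 14.4 ± 3.17 FPKM (effect 1.09 ± 0.09, adjusted p = 8.57e-07). The prostacyclin receptor Ptgir rose by 0.68 (adjusted p = 0.000321), and the prostaglandin E2 receptor Ptger2 by 0.61 (adjusted p = 2.09e-05) from 0.253 FPKM. In contrast, another prostaglandin E2 receptor, Ptger3, fell from 11.4 ± 3.15 to 4.37 ± 1.7 FPKM (effect -1.32 ± 0.18, adjusted p = 6.71e-05), and the prostaglandin F receptor Ptgfr from 5.59 ± 1.77 to 3.06 ± 0.692 FPKM (effect -0.75 ± 0.11, adjusted p = 6.56e-05).

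Among the other lipoxygenases and the enzymes downstream of the epidermal pair, 6 were tested, with 1 higher and 1 lower. Sdr9c7, which oxidises the product of Aloxe3 in barrier formation, rose from 24.6 to 34.6 FPKM (effect 0.49, adjusted p = 0.000241, limma), while the epoxide hydrolase Ephx2 fell (effect -0.38, adjusted p = 0.000543). Alox12e, an epidermis-type lipoxygenase, was at 110 and 92.4 FPKM (effect -0.31, adjusted p = 0.074), above all 3 epidermal lipoxygenases described here.

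To describe which transcripts followed each enzyme, Pearson correlations of log2(FPKM + 0.5) were taken over the 24 libraries, which share the wound state and 12 mice and are thus not independent points. The most similar genes to Ptgs2 were Trem3 (r = 0.979), Srgn (0.977) and the chemokine Cxcl1 (0.977). Those to Alox5ap were Rac2 (0.982), Cyba (0.979) and Spi1 (0.979), and those to Ptges were Krt14 (0.97), Slc25a48 (0.968) and Cxcr2 (0.962). Ptgis was closest to Nos2 (0.928), Ccl6 (0.907) and P4ha1 (0.906). Aloxe3 was closest to Wfdc21 (0.942), Ankrd35 (0.940) and Lce1l (0.935), and Alox12b to Chic2 (0.871), Sptlc3 (0.831) and Rnf225 (0.815). The nearest genes were less similar for Alox5 (Tnxb, 0.862, Cd207, 0.810, and Rnf165, 0.802), Alox15 (Xylt2, 0.799, Arhgap8, 0.792, and Ccdc9, 0.778), Alox12 (Lsr, 0.755, Ift20, 0.754, and Polb, 0.753) and Ptgs1 (Fam81a, 0.694, Clca2, 0.683, and Oas1f, 0.682).

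Between the enzymes, the highest correlation was 0.908, for Ptgs2 and Ptges, followed by 0.836 for Ptgis and Alox5ap. The neighbouring genes Alox12b and Aloxe3 correlated at 0.763, Alox5 and Aloxe3 at 0.746, and Ptgs1 and Alox5 at 0.668. Alox5 and its helper Alox5ap correlated at -0.21, and Ptgs2 and Aloxe3 at -0.69. These values describe the same 24 libraries and carry no test.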

How the data were processed

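RNA of 24 skin libraries (12 mice) was read in pairs (100 bases per end) on the BGISEQ-500 platform. The authors' notes name GRCm38/mm10, HISAT2, Bowtie2 2.2.5 and RSEM 1.2.12. The FPKM values were deposited by the authors rounded to 2 decimals, 18368 genes, and were used without scaling between libraries beyond that of FPKM itself. The authors also deposited fold changes and adjusted p values of their own comparisons, which were not used. Every per-sample column was used.

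Here, log2(FPKM + 0.5) was analysed with limma 3.58.1 (statmod 1.5.0, R 4.3.3) with trend and robust moderation, keeping genes that reached 0.5 FPKM in 4 or more libraries. Wound effects came from the 24 libraries together, with the mouse as a block. The labels give both libraries of a mouse, whose deviations correlated with a mean r of 0.322 (abdomen), 0.348 (back) and 0.281 (cheek), lowest -0.030, against -0.096 to -0.116 between mice. Sites were compared within 12 libraries, without a block. Benjamini-Hochberg adjustment ran over all genes tested. Single enzymes were tested by exact sign changes over 12 mice or exact permutation of 4 against 4 libraries. The models were also run on simulated data with planted effects, as a check of the code. No result here rests on that run.

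The enzymes, the 2 groups, the pathway and marker lists and the tests were chosen with earlier results of these data known. All enzymes were described. Of the pathway list, the 5 largest rises and falls of the averaged wound effect among genes under 0.001 were named, and the 3 genes most correlated with each enzyme. Absolute depth is unknown. The closing section gives the effect of other pseudocounts, filters, scalings, moderation, blocks, sets of libraries and thresholds, and of leaving out each mouse.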

Additional observations from a re-analysis of the deposited data

Results flagged for a closer look

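In 60 groups of 4 libraries (10 enzymes, 3 sites, unwounded or wound), 3 groups held a library far from the other 3, judged by its gap over the range of the group (Dixon's test). Chance gives this in 5% of groups, so these 3 are about what chance gives. Ptgs2 in unwounded cheek of mouse 3 was 1.2 FPKM, while the other 3 mice measured 0.44 to 0.53. The wound of that mouse also had the highest Ptgs2 of all libraries, 25.94 FPKM. Ptgis in unwounded cheek of mouse 4 was 1.67 FPKM, below 2.75 to 2.87 in the others. Aloxe3 in unwounded back of mouse 1 was 18.33 FPKM, above 15.0 to 15.49. Each was at most 1 of 12 unwounded libraries in the averaged wound effects, which kept their direction with each of these mice left out. Dixon's test takes each enzyme alone. In unwounded cheek of mouse 4, Ptgs1 (28.91 FPKM), Alox5 (4.7) and Alox5ap (30.88) were the lowest of unwounded skin. So were Ptges (10), Alox15 (0.3) and Alox12b (23.42), but not the other enzymes. Its fibroblast marker sum was the lowest of unwounded skin (9089 FPKM) and its wound-edge keratinocyte sum the highest (1285 FPKM). Without this mouse, the cheek wound effects of Ptgs1 and Alox12b were -0.14 and -0.077.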

How the results depend on the processing

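In the abdomen the wound effect was called for 1 enzyme, for 2 under median-ratio scaling, for 0 when the 8 libraries of the site were analysed alone and for 4 at an adjusted p under 0.05. At that threshold the back went from 4 to 7 and the averaged effect from 4 to 9 (both directions). In the cheek 4 became 1 with the site alone. Leaving out each mouse in turn gave 0 to 2 in the abdomen, 3 to 4 in the back, 1 to 4 in the cheek and 4 to 5 averaged, and 0 to 1 for the difference between sites in the wound effect. Counts of all genes called moved as well, by the ranges at the end of this section. A higher count of enzymes under a setting is thus not read as a result about the enzymes.

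For unwounded back against abdomen, 1 became 0 with a pseudocount of 0.1, without the filter, and under median-ratio or quantile scaling. Unwounded cheek against abdomen went from 1 to 2 with a pseudocount of 1 or median-ratio scaling, and to 3 with quantile scaling or all 24 libraries in 1 model. Over the settings, the count of all genes called there moved too, from 358 to between 241 and 1266. Unwounded cheek against back went from 0 to 1 under median-ratio or quantile scaling. Cheek against abdomen in wounds went from 1 to 3 under both scalings, and to 2 with plain moderation or all 24 libraries in 1 model. With a mouse left out, unwounded counts were 0 to 1 (back against abdomen), 0 to 2 (cheek against abdomen) and 0 (cheek against back), and wound counts were 0 to 1, 1 to 2 and 0 to 1 in the same order.

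With no replicate block for the mouse, which pairs its libraries, the abdomen had 2 calls, with Alox5ap gained, and the cheek had 3, with Ptgis lost (adjusted p = 0.0131). Ptgis in the cheek was also lost with a pseudocount of 1, without the filter, with plain moderation and with the site alone (adjusted p 0.00103 to 0.00682). A replicate block by mouse number, which mice of different sites share only as a number, gave 0 calls for back against abdomen and cheek against abdomen in unwounded skin, and 0 for back against abdomen and cheek against back in wounds.

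Values that changed sign were all small and uncalled. The Ptgis difference of cheek and abdomen in the wound effect was 0.0012 with a pseudocount of 1 and 0.00037 under quantile scaling, and -0.15 to 0.16 with a mouse left out. Under quantile scaling, Alox15 in unwounded cheek against back was -0.016 (-0.17 to 0.39 with a mouse left out), and Ptgis in cheek against abdomen wounds was -0.013 (-0.13 to 0.32). With a mouse left out, the wound effect ranged from -0.30 to 0.053 for Alox15 in the abdomen, from -0.14 to 0.13 for Ptgs1 in the cheek and from -0.077 to 0.22 for Alox12b in the cheek.

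Over 74 results of single enzymes, 1450 of 1568 values under an alternative kept direction and side of the threshold, 60 lost a call, 41 gained one (11 of them at 0.05) and 17 changed sign, of which 0 belonged to the 18 called results. Aloxe3 averaged over sites passed 0.001 under median-ratio and quantile scaling, with no replicate block and without back mouse 4. The excess of the inflammatory over the epidermal median was 0.96 to 1.09 under other settings and 1.01 to 1.03 with a mouse left out. Over all genes, counts called also moved, for example for unwounded back against abdomen from 373 to between 206 and 1527, for unwounded cheek against abdomen from 358 to between 241 and 1266, for unwounded cheek against back from 147 to between 91 and 1055, and in wounds from 178 to between 28 and 201 (back against abdomen), from 1519 to between 769 and 1554 (cheek against abdomen) and from 351 to between 119 and 395 (cheek against back). The wound effect was called for 715 genes in the abdomen (67 to 4741), 2074 in the back (1825 to 6622), 1254 in the cheek (248 to 5272) and 4824 averaged (4682 to 9045). With a mouse left out, the site comparisons ranged from 109 to 543 (back against abdomen), 81 to 693 (cheek against abdomen) and 73 to 154 (cheek against back) in unwounded skin, and from 22 to 285, 508 to 1703 and 48 to 1095 in wounds. The wound effects ranged from 293 to 833 (abdomen), 910 to 2322 (back), 543 to 1503 (cheek) and 3992 to 4793 (averaged), and the difference between sites from 1 to 315, so the shares of all genes given beside the enzymes move with single mice. The causes were not tested. FPKM give no counts, so depth limits the low genes Ptgs2 and Alox15 by an unknown amount.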
